A study of Homo sapiens with 16 samples.

Results

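Aminoacyl-tRNA synthetases were examined in HCT116 cells, a human colon cancer line, with and without knockdown of the long noncoding RNA NORAD. The 36 genes form a list of known synthetases, 20 for cytosolic and 16 for mitochondrial enzymes, a rule that uses no measured value, though the list was drawn up with earlier results of these data known. They were matched by GENCODE 29 symbol, so AARS, for example, is the gene now also written AARS1. The list does not hold every mitochondrial synthetase. All 36 were present among the 31496 genes of the table, and all 36 were among the 19836 genes that passed the filter on low counts.

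Each synthetase joins an amino acid to the transfer RNAs that carry it to the ribosome, so the cytosolic set serves nearly all protein synthesis of the cell. The mitochondrial set, encoded in the nucleus by separate genes, serves the few proteins made inside mitochondria. KARS and GARS each give both forms from a single gene. Class I and class II enzymes have unrelated catalytic folds, and several cytosolic enzymes sit in a multi-synthetase complex held together by the scaffold proteins AIMP1, AIMP2 and EEF1E1. When charged tRNA runs short, the kinase EIF2AK4 (GCN2) phosphorylates eIF2 alpha and the transcription factor ATF4 is made, whose known targets include many cytosolic synthetase genes.

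The groups were knockdown and wild type at 24 h (n = 2 each), 48 h (n = 3 each) and 96 h (n = 3 each), 16 libraries of polyadenylated RNA in all. NORAD was silenced with CRISPR interference (a Cas9 without cutting activity, joined to a repressor, is guided to a promoter), switched on with doxycycline at 0.5 µg/ml. The same doxycycline text stands on the labels of all 16 samples, wild type included, but they do not say outright that the wild-type cells received it. Nor do they say whether those cells carried the repressor or a control guide, or whether the knockdown line was a clone. Effects of doxycycline, of the repressor, of a line and of NORAD loss cannot be told apart here. Replicates are not stated to be separate cultures, so the spread behind each p-value is that between libraries and may be technical.

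NORAD averaged 208.7 ± 29.7 CPM (counts relative to library size, with edgeR's TMM scaling) in the 24 h libraries labelled knockdown, against 190.0 ± 15.9 CPM in wild type (SD, n = 2 each). It averaged 21.5 ± 3.34 CPM in knockdown and 157.8 ± 3.99 CPM in wild type at 48 h, and 72.9 ± 6.86 CPM in knockdown and 182.8 ± 1.37 CPM in wild type at 96 h (SD, n = 3 each). The target was thus not lower at 24 h (log2 fold change 0.14, SE 0.117, edgeR adjusted p = 0.523), and directions at that time are those of the labels. ZNF10, from which the repressor domain common in CRISPR interference was taken, averaged 94.1 ± 21.7 CPM in the 24 h libraries labelled knockdown and 0.351 ± 0.124 CPM in wild type. Library totals lay between 28391784 and 51853876 estimated counts. Mitochondrially encoded RNAs held 6.08% and 6.10% of counts in the 24 h libraries labelled knockdown, against 4.89% and 5.05% in wild type, with no overlap. They held 12.3%, 13.8% and 12.9% in knockdown, against 10.8%, 10.4% and 11.15% in wild type at 48 h, again without overlap, and 14.8% to 17.4% in knockdown and 15.5% to 16.6% in wild type at 96 h. The epithelial markers KRT8, KRT18 and EPCAM were present in all libraries (lowest values 1587, 926 and 193 CPM), while PTPRC of blood cells stayed at or below 0.26 CPM. The 6 epithelial markers summed to 6356 to 6993 CPM in the libraries labelled knockdown and 7627 to 8081 CPM in wild type at 24 h, and to 4202 to 5065 CPM in knockdown and 6725 to 7037 CPM in wild type at 48 h. At 96 h the order was the other way round, with 5670.1 to 5975 CPM in knockdown and 4746 to 5220.2 CPM in wild type. The 5 fibroblast markers summed to 77.1 to 78.9 CPM in the libraries labelled knockdown and 56.0 to 70.5 CPM in wild type at 24 h, to 61.9 to 80.6 CPM in knockdown and 34.0 to 35.0 CPM in wild type at 48 h, and to 43.9 to 48.6 CPM in knockdown and 38.9 to 48.9 CPM in wild type at 96 h. That sum was nearly all COL1A1, since COL1A2, COL3A1, DCN and LUM each stayed at or below 0.68 CPM. The part of these shifts in the results was not tested.

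Levels between genes were compared per length, as TPM (counts per transcript length, scaled to a fixed total in each library). QARS, the glutaminyl-tRNA synthetase, was the most abundant, with group means between 113 and 158 TPM and an average of 139.7 TPM over the 6 groups. VARS (valine) averaged 113 TPM and KARS (lysine) 99.4 TPM. QARS was above VARS in 8 of 8 wild-type libraries, whereas VARS was above KARS in 5 of 8, so VARS and KARS did not keep a fixed order. SARS2, the mitochondrial seryl enzyme, averaged 48.5 TPM and was the most abundant mitochondrial member, within the range of the cytosolic set. The lowest average over the 6 groups was that of WARS2 (mitochondrial tryptophan) with 4.04 TPM, next to PARS2 (mitochondrial proline) with 4.97 TPM, and PARS2 was above WARS2 in 6 of 8 wild-type libraries, so their order was not fixed. FARSA and FARSB encode the 2 subunits of the same cytosolic phenylalanyl enzyme, yet FARSA averaged 95.9 TPM and FARSB 7.34 TPM.

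**Figure D1:**
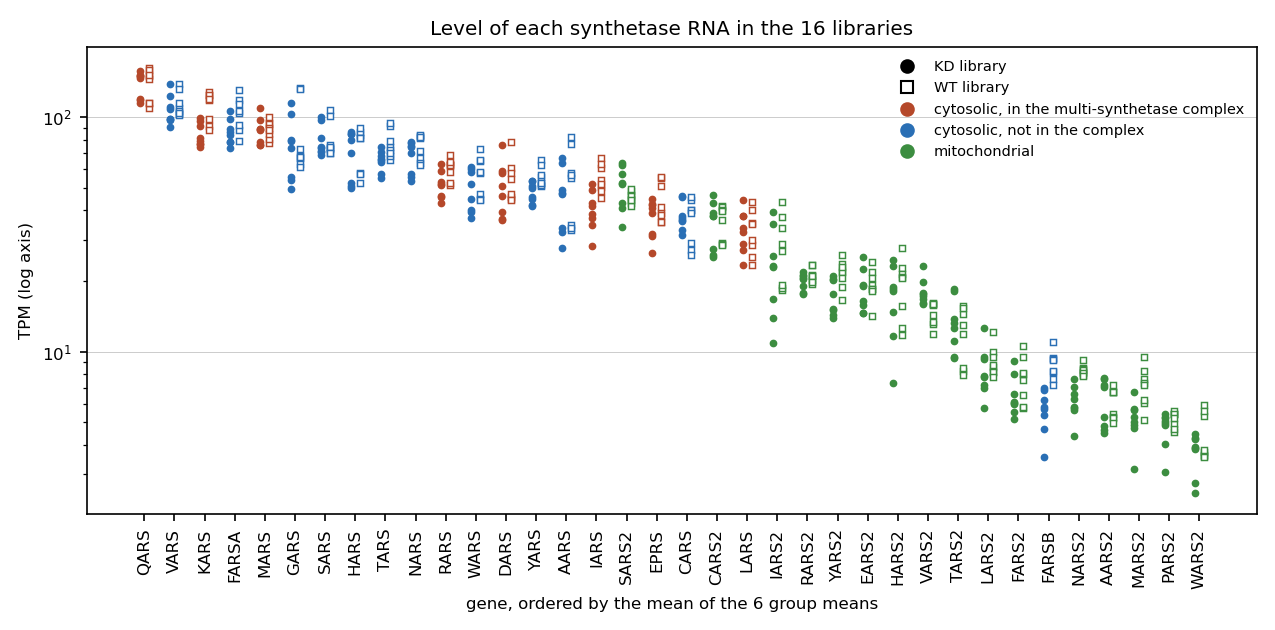
Level of each of the 36 synthetase RNAs in TPM (log axis), 1 filled circle per knockdown library and 1 open square per wild-type library, ordered by the mean of the 6 group means. Cytosolic genes fill the upper left and mitochondrial genes the lower right, with FARSB among the mitochondrial genes, and SARS2 and CARS2 among the cytosolic ones.

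The cytosolic genes together reached 1491 ± 31.2 TPM in the 24 h libraries labelled knockdown and 1662 ± 31.4 TPM in wild type (SD, n = 2 each). At 48 h the sum was 1225 ± 81.3 TPM in knockdown and 1316 ± 38.9 TPM in wild type, and at 96 h it was 1153 ± 25.1 TPM in knockdown and 1320.2 ± 34.7 TPM in wild type (SD, n = 3 each). The groups did not overlap at 24 h and 96 h. They overlapped at 48 h, where knockdown replicate 3 reached 1286 TPM and wild-type replicate 1 had 1275 TPM. The mitochondrial sum was 308 ± 11.4 TPM in the libraries labelled knockdown and 301 ± 13.5 TPM in wild type at 24 h, 246 ± 24.2 TPM and 251 ± 9.66 TPM in knockdown and wild type at 48 h, and 227 ± 3.08 TPM and 256 ± 10.8 TPM at 96 h. On this scale, where all transcripts sum to the same total, the mitochondrial sums differed beyond the range of the libraries at 96 h alone.

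In the test of single genes, most synthetase RNAs fell at 24 h and 48 h, and few passed at 96 h. A gene is said to have risen or fallen where edgeR's quasi-likelihood test gave a Benjamini-Hochberg adjusted p under 0.05 over all 19836 genes. In the 24 h libraries labelled knockdown 23 of 36 fell and 0 rose, where 12.4% of all tested genes fell and 5.14% rose. In knockdown at 48 h 24 fell and 1, VARS2, rose, where 18.5% of all genes fell and 14.8% rose. At 96 h 6 fell and 0 rose, where 5.15% fell and 5.35% rose. The median log2 fold change of the 36 was -0.36 at 24 h, -0.27 at 48 h and -0.15 at 96 h, and that of all tested genes was -0.02, 0.06 and -0.01. DARS, EPRS, FARSB, IARS, YARS and YARS2 fell at all 3 times. A further 13 fell at 24 h and 48 h, 19 in all. CARS, HARS, MARS and SARS passed at 24 h alone, and EARS2, HARS2, LARS2, MARS2 and PARS2 at 48 h alone. AARS2, CARS2, LARS, QARS, SARS2, TARS2 and WARS2 passed at no time. On the TPM scale the group means went the other way for some fallen genes, CARS and NARS at 24 h and DARS and GARS at 48 h. In bulk RNA, less RNA per cell and a change in the mix of cells cannot be told apart.

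**Figure D2:**
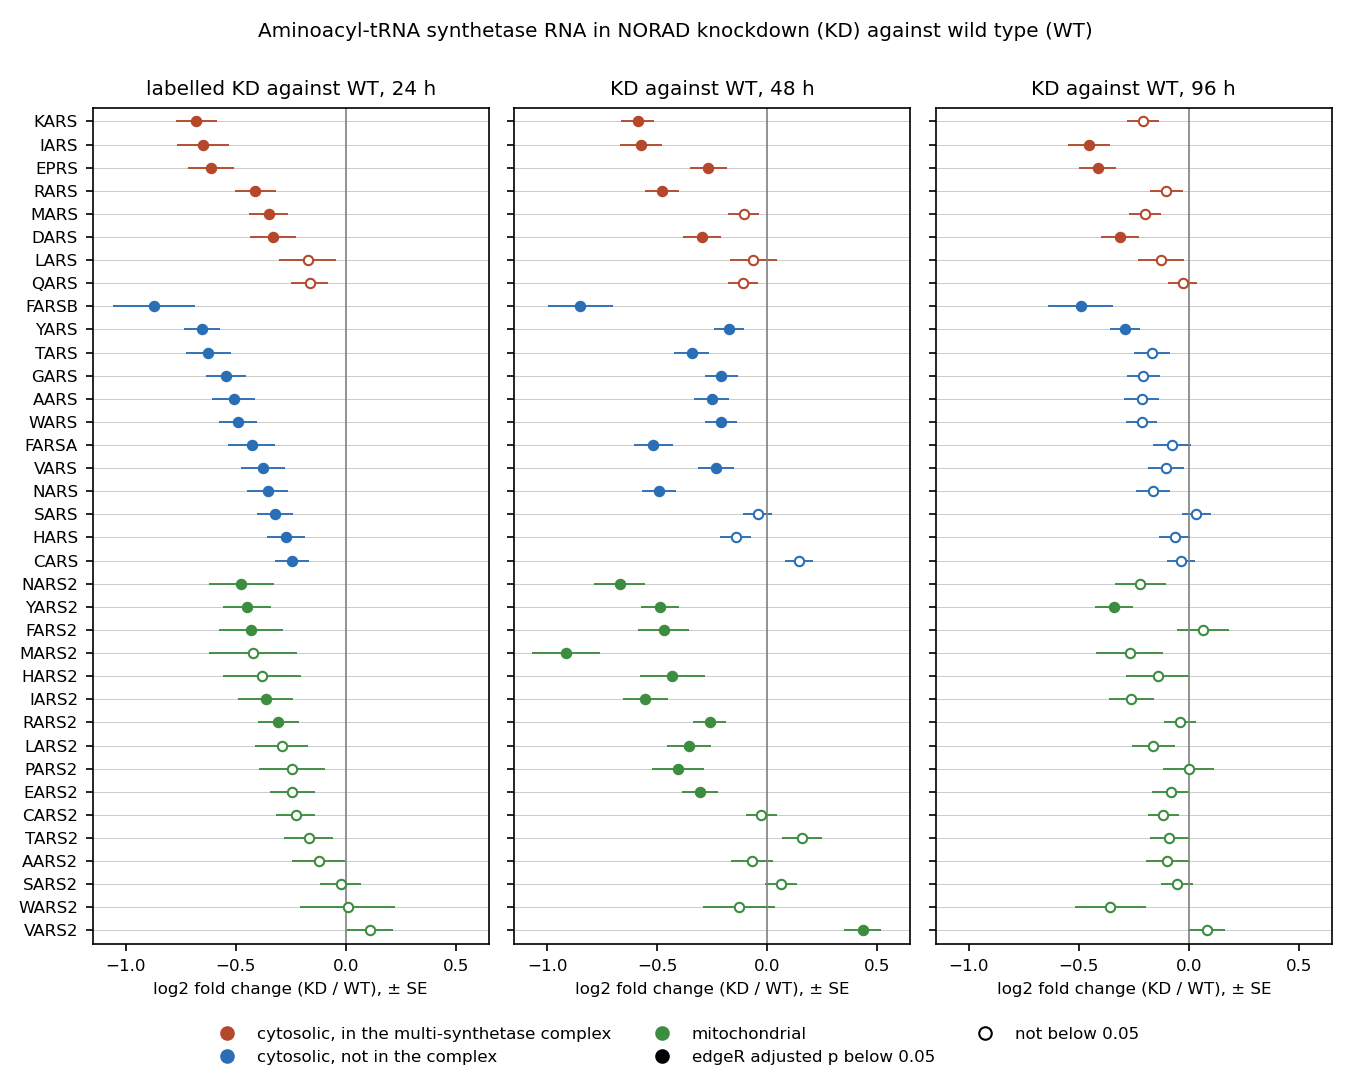
Log2 fold change of knockdown over wild type (points, bars are ± SE) for each synthetase at 24 h, 48 h and 96 h, with filled points for an edgeR adjusted p below 0.05. The cytosolic genes all lie left of 0 at 24 h, 10 mitochondrial genes are filled on the left at 48 h, and 6 points are filled at 96 h.

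How many fell depended on how libraries were scaled, while the median of the 36 stayed below that of all genes under the 6 scalings tried. Under total-count scaling 9 fell at 24 h, 12 at 48 h and 10 at 96 h, and 4 rose at 48 h. Of 19836 genes, 810 fell at 24 h, 2134 at 48 h and 1099 at 96 h under it, and 4731 rose at 48 h. That scaling moved the median of all genes up by 0.21 log2 units at 24 h and 0.14 at 48 h, and upper-quartile scaling moved it by 0.12 at both. The synthetases' median minus the all-gene median of the same scaling was -0.34 at 24 h under TMM, upper-quartile and total-count scaling, and -0.21 with offsets that depend on abundance. At 48 h it was -0.33 under those 3 scalings and -0.17 with abundance-dependent offsets, and at 96 h it lay between -0.15 and -0.14 under all 6. The 7 calls at 24 h that held under all 10 other settings and with each of the 16 libraries left out were EPRS, GARS, IARS, KARS, TARS, WARS and YARS. At 48 h the 10 such calls were FARSA, FARSB, IARS, IARS2, KARS, MARS2, NARS, NARS2, RARS and YARS2. At 96 h the 6 calls held under each scaling and were lost when a change beyond 1.2-fold was asked for, and EPRS and IARS kept theirs with each library left out. Leaving out replicate 2 of the libraries labelled knockdown left 7 calls at 24 h, the lowest count, where 924 of 20619 genes fell.

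**Figure D3:**
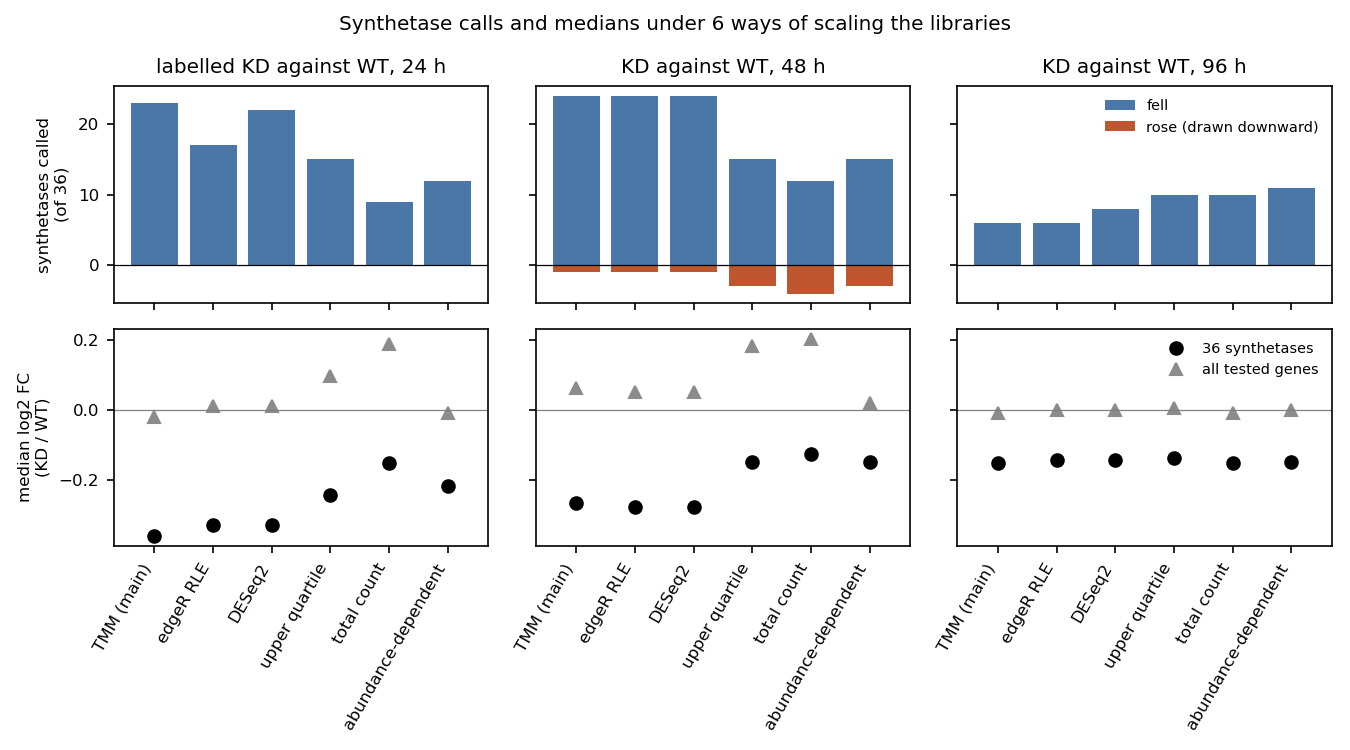
Number of synthetases that fell (upward bars) or rose (downward bars) and the median log2 fold change of the 36 synthetases (circles) and of all tested genes (triangles) under 6 ways of scaling, at 24 h, 48 h and 96 h. The circles lie below the triangles in every panel, and total-count scaling gives the fewest falls at 24 h (9) and 48 h (12).

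Of the 8 cytosolic enzymes of the multi-synthetase complex, 6 fell at 24 h, 5 at 48 h and 3 at 96 h, and none rose. Among all tested genes 12.4%, 18.5% and 5.15% fell at these times. KARS (ENSG00000065427, chr16:75627474-75648643, minus strand, GRCh38) had 123 and 125 CPM in the libraries labelled knockdown, against 199.9 and 198 CPM in wild type at 24 h. It had 143, 158 and 182 CPM in knockdown, against 245, 241 and 239.7 CPM in wild type at 48 h. At 96 h it had 148, 144 and 140.2 CPM in knockdown, against 163, 172 and 164 CPM in wild type. The groups did not overlap at any time, and the gap was narrowest at 96 h. KARS fell to 0.625 of wild type at 24 h (log2 fold change -0.68, SE 0.092, edgeR adjusted p = 4.24e-05) and 0.665 at 48 h (log2 fold change -0.59, SE 0.0747, edgeR adjusted p = 4.95e-06), and did not pass at 96 h (log2 fold change -0.21, SE 0.0746, edgeR adjusted p = 0.0829).

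IARS (ENSG00000196305, chr9:92210207-92293756, minus strand), the isoleucyl enzyme, fell at each time. It had 127 and 125 CPM in the libraries labelled knockdown, against 193 and 200.3 CPM in wild type at 24 h. It had 122, 115 and 158 CPM in knockdown, against 195, 199 and 195 CPM in wild type at 48 h, and 164, 148 and 135 CPM in knockdown, against 195, 219 and 198 CPM in wild type at 96 h. All knockdown libraries lay below all wild-type libraries of their time. The fold changes were -0.65 (SE 0.118, edgeR adjusted p = 0.000658), -0.58 (SE 0.096, edgeR adjusted p = 0.000109) and -0.45 (SE 0.0956, edgeR adjusted p = 0.003) on the log2 scale at 24 h, 48 h and 96 h.

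EPRS (ENSG00000136628, chr1:219968601-220046658, minus strand) encodes a fused enzyme for glutamate and proline, of both classes. It had 99.0 and 91.7 CPM in the libraries labelled knockdown, against 147 and 144 CPM in wild type at 24 h, and 109, 96.0 and 85.7 CPM in knockdown, against 124, 133 and 132 CPM in wild type at 96 h. It fell at 24 h (log2 fold change -0.61, SE 0.105, edgeR adjusted p = 0.000388), 48 h (log2 fold change -0.27, SE 0.085, edgeR adjusted p = 0.0195) and 96 h (log2 fold change -0.41, SE 0.0851, edgeR adjusted p = 0.00239). The 48 h call was lost under 6 of the 10 other settings. DARS (aspartate) fell at each time, with log2 fold changes of -0.33, -0.30 and -0.31 (edgeR adjusted p = 0.0346, 0.0119 and 0.0211), calls lost under 8, 4 and 2 of the 10 other settings. RARS (arginine) fell at 24 h and 48 h and had 97.9, 86.4 and 82.1 CPM in knockdown, against 88.6, 102 and 95.7 CPM in wild type at 96 h, where the groups overlapped. MARS (methionine) fell at 24 h (log2 fold change -0.35, SE 0.0885, edgeR adjusted p = 0.00813) and did not pass later. LARS (leucine) and QARS passed at no time. QARS, the most abundant member, had 161 and 159 CPM in the libraries labelled knockdown, against 187 and 172 CPM in wild type at 24 h (log2 fold change -0.16, SE 0.0836, edgeR adjusted p = 0.214).

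All 12 cytosolic enzymes outside the complex fell at 24 h, 9 fell at 48 h and 2, FARSB and YARS, at 96 h. The shares of all tested genes that fell were 12.4%, 18.5% and 5.15%. FARSB (ENSG00000116120, chr2:222570536-222656337, minus strand), the beta subunit of the phenylalanyl enzyme, had the lowest log2 fold change of the 36 at 24 h and 96 h. It had 15.5 and 13.3 CPM in the libraries labelled knockdown, against 24.7 and 27.9 CPM in wild type at 24 h, and 13.6, 12.1 and 20.8 CPM in knockdown, against 26.0, 30.0 and 27.3 CPM in wild type at 48 h. At 96 h it had 17.7, 18.0 and 16.2 CPM in knockdown, against 24.1, 26.6 and 22.3 CPM in wild type. The groups did not overlap, and at 48 h knockdown replicate 3 lay between its other 2 libraries and wild type. FARSB fell to 0.547 of wild type at 24 h (log2 fold change -0.87, SE 0.185, edgeR adjusted p = 0.0035), 0.555 at 48 h (log2 fold change -0.85, SE 0.149, edgeR adjusted p = 0.000378) and 0.711 at 96 h (log2 fold change -0.49, SE 0.148, edgeR adjusted p = 0.0426). The 96 h call was lost with 13 of the 16 libraries left out in turn. FARSA (ENSG00000179115, chr19:12922479-12934037, minus strand), which encodes the alpha subunit, had 134, 136 and 171 CPM in knockdown, against 207, 220.1 and 204 CPM in wild type at 48 h. FARSA fell at 24 h (log2 fold change -0.43, SE 0.107, edgeR adjusted p = 0.00756) and 48 h (log2 fold change -0.52, SE 0.0869, edgeR adjusted p = 0.000115), and at 96 h its groups overlapped (log2 fold change -0.08, SE 0.087, edgeR adjusted p = 0.712).

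YARS (ENSG00000134684, chr1:32775237-32818153, minus strand), the tyrosyl enzyme, had 89.3 and 90.8 CPM in the libraries labelled knockdown, against 145 and 138 CPM in wild type at 24 h. It had 127, 130.4 and 146 CPM in knockdown, against 155, 152 and 148 CPM in wild type at 48 h. At 96 h it had 114, 118 and 108 CPM in knockdown, against 140.2, 135 and 139.8 CPM in wild type. No group overlapped its wild type, but at 48 h the highest knockdown library lay just under the lowest wild-type one. YARS fell to 0.636 of wild type at 24 h (log2 fold change -0.65, SE 0.0824, edgeR adjusted p = 2.1e-05), 0.886 at 48 h (log2 fold change -0.17, SE 0.0666, edgeR adjusted p = 0.0493) and 0.817 at 96 h (log2 fold change -0.29, SE 0.0666, edgeR adjusted p = 0.00576). The 48 h call was lost with 15 of the 16 libraries left out in turn, and with abundance-dependent offsets the 48 h change was 0.01.

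TARS (threonine) had 65.3 and 78.9 CPM in the libraries labelled knockdown, against 113 and 109.9 CPM in wild type at 24 h (log2 fold change -0.62, SE 0.1, edgeR adjusted p = 0.000228), and fell at 48 h too (log2 fold change -0.34, SE 0.0811, edgeR adjusted p = 0.00257). GARS (glycine) had 139 and 124 CPM in the libraries labelled knockdown, against 195 and 189 CPM in wild type at 24 h (log2 fold change -0.54, SE 0.0918, edgeR adjusted p = 0.000336). WARS (tryptophan), a known interferon gamma target, had 74.1 and 77.4 CPM in the libraries labelled knockdown, against 102 and 110.3 CPM in wild type at 24 h (log2 fold change -0.49, SE 0.0875, edgeR adjusted p = 0.00056). In these 3 genes both libraries labelled knockdown lay below both wild-type libraries. At 48 h GARS (log2 fold change -0.21, SE 0.0748, edgeR adjusted p = 0.0372) and WARS (log2 fold change -0.21, SE 0.0707, edgeR adjusted p = 0.0267) fell too. These calls were lost under 6 and 7 of the 10 other settings. As TPM, GARS had 80.2, 79.3 and 73.5 in knockdown, against 68.0, 67.0 and 73.4 in wild type at 48 h, so knockdown was higher on that scale. AARS (alanine), VARS and NARS (asparagine) also fell at 24 h and 48 h. NARS had 113, 113 and 138 CPM in knockdown, against 171, 168 and 173 CPM in wild type at 48 h, the lowest adjusted p of the group outside the complex at that time (log2 fold change -0.49, SE 0.0771, edgeR adjusted p = 5.4e-05). SARS (serine) and HARS (histidine) passed at 24 h alone, with log2 fold changes of -0.32 and -0.27, calls lost under 5 of the 10 other settings for SARS and 8 for HARS.

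CARS (ENSG00000110619, chr11:3000922-3057613, minus strand), the cysteinyl enzyme, was the one cytosolic member above 0 at 48 h. It had 74.2 and 71.7 CPM in the libraries labelled knockdown, against 88.9 and 84.0 CPM in wild type at 24 h. It had 74.3, 75.2 and 74.8 CPM in knockdown, against 68.8, 70.8 and 63.2 CPM in wild type at 48 h, and 88.6, 89.8 and 87.0 CPM in knockdown, against 91.7, 88.4 and 92.0 CPM in wild type at 96 h. The knockdown libraries lay below wild type at 24 h, above it at 48 h and across it at 96 h. CARS fell at 24 h (log2 fold change -0.25, SE 0.0782, edgeR adjusted p = 0.0336) and did not pass at 48 h (log2 fold change 0.15, SE 0.0637, edgeR adjusted p = 0.0843). The 24 h call was lost under 8 of the 10 other settings.

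**Figure D4:**
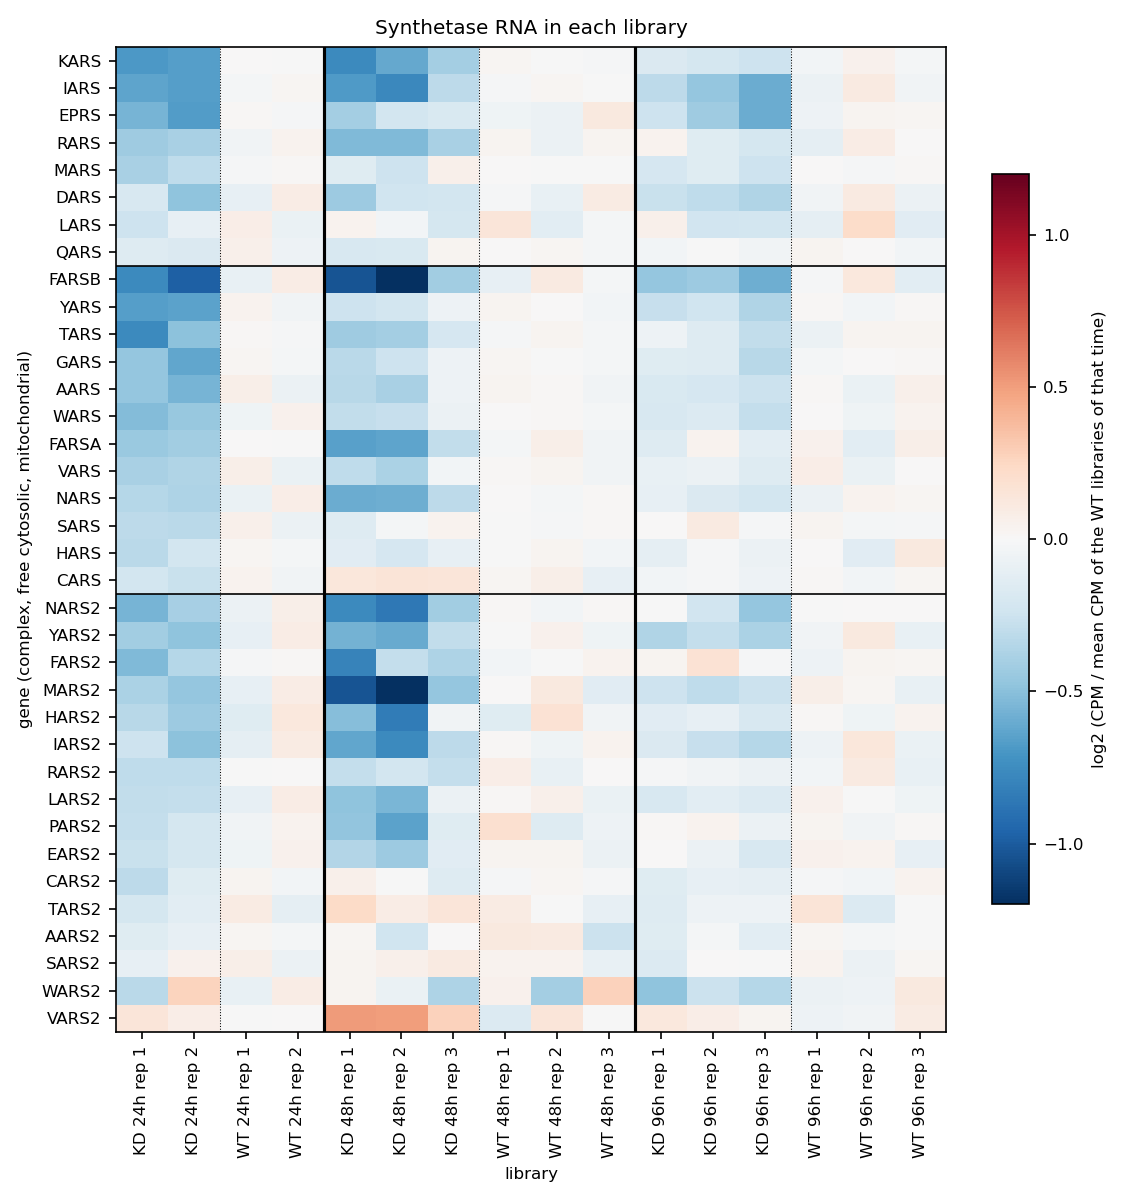
Log2 of CPM over the mean CPM of the wild-type libraries of the same time, for each synthetase (rows) in each of the 16 libraries (columns, knockdown left of wild type within each time). Blue is lower and red is higher; at 48 h knockdown replicate 3 is paler than replicates 1 and 2 in most rows, and VARS2 is red in the 3 knockdown libraries.

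Of the 16 mitochondrial enzymes 5 fell at 24 h, 10 at 48 h and 1 at 96 h. Of all tested genes 12.4%, 18.5% and 5.15% fell at these times, so the 96 h count is near the share of all genes. Under total-count scaling 0 of the 16 fell at 24 h and 5 at 48 h, and under upper-quartile factors 1 and 8. Of 19836 genes, 810 and 2134 fell under total-count scaling, and 1489 and 2476 under upper-quartile factors. The median log2 fold change of the 16 was -0.27, -0.33 and -0.11 at 24 h, 48 h and 96 h, against -0.42, -0.24 and -0.18 for the 20 cytosolic genes. Under total-count scaling the medians were -0.06, -0.19 and -0.11 for the mitochondrial and -0.21, -0.11 and -0.18 for the cytosolic genes. With abundance-dependent offsets they were -0.21, -0.25 and -0.10 for the mitochondrial and -0.23, -0.06 and -0.18 for the cytosolic genes. Whether the compartments differed was not tested. YARS2 (ENSG00000139131, chr12:32727490-32755902, minus strand), the mitochondrial tyrosyl enzyme, was the one that fell at all 3 times. It had 25.9 and 24.8 CPM in the libraries labelled knockdown, against 32.4 and 36.9 CPM in wild type at 24 h, 30.6, 29.9 and 37.0 CPM in knockdown, against 45.3, 47.3 and 43.9 CPM in wild type at 48 h, and 26.8, 28.3 and 26.4 CPM in knockdown, against 33.4, 37.4 and 32.4 CPM in wild type at 96 h. All knockdown libraries lay below wild type. Its log2 fold changes were -0.45, -0.49 and -0.34 (edgeR adjusted p = 0.00567, 0.000204 and 0.0123).

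MARS2 (ENSG00000247626, chr2:197705369-197708387, plus strand), for methionine, had the largest drop of the 36 at 48 h. It had 12.3, 9.63 and 18.2 CPM in knockdown, against 25.3, 27.3 and 22.9 CPM in wild type at 48 h, a fall to 0.53 of wild type (log2 fold change -0.92, SE 0.156, edgeR adjusted p = 0.000262). Replicate 3 was again the highest of the knockdown libraries. NARS2 (ENSG00000137513, chr11:78435961-78574874, minus strand), for asparagine, had 10.9, 10.2 and 13.9 CPM in knockdown, against 18.7, 18.1 and 18.8 CPM in wild type at 48 h (log2 fold change -0.67, SE 0.116, edgeR adjusted p = 0.000159). IARS2 (ENSG00000067704, chr1:220094102-220148041, plus strand), for isoleucine, had 42.7, 38.6 and 53.0 CPM in knockdown, against 66.2, 63.2 and 67.7 CPM in wild type at 48 h (log2 fold change -0.55, SE 0.103, edgeR adjusted p = 0.000333). In both genes the groups did not overlap. FARS2, HARS2, PARS2, LARS2, EARS2 and RARS2 fell at 48 h with log2 fold changes between -0.47 and -0.26, and in HARS2, LARS2 and PARS2 knockdown replicate 3 overlapped wild type. HARS and HARS2 lie head to head on opposite strands with 437 bases in common, and whether the authors' counting used strand is not given, so reads from the overlap are uncertain.

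VARS2 (ENSG00000137411, chr6:30908242-30926459, plus strand), for valine, was the one member that rose. It had 56.1, 55.7 and 47.8 CPM in knockdown, against 35.2, 43.6 and 39.4 CPM in wild type at 48 h (log2 fold change 0.43, SE 0.084, edgeR adjusted p = 0.000476), 1.35-fold higher without overlap. At 24 h and 96 h it did not pass (0.11 and 0.08, edgeR adjusted p = 0.574 and 0.676). Its cytosolic counterpart VARS had 286, 271 and 347 CPM in knockdown, against 356, 362 and 343 CPM in wild type at 48 h and fell (log2 fold change -0.23, SE 0.0815, edgeR adjusted p = 0.0337), a call lost under 7 of the 10 other settings. VARS2 overlaps GTF2H4, a transcription and repair factor subunit on the same strand, and GTF2H4 fell at 48 h (log2 fold change -0.28, SE 0.0758, edgeR adjusted p = 0.00692); reads in the shared part are uncertain. SARS2, for serine, passed at no time, while MRPS12, a mitochondrial ribosomal protein gene that overlaps it on the other strand, fell at 24 h (-0.47) and 48 h (-0.54, edgeR adjusted p = 0.00345 and 5.52e-05).

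At 48 h the knockdown libraries were not alike. Retained-intron transcripts held 9.06%, 10.1% and 4.93% of the synthetases' counts in knockdown replicates 1, 2 and 3, against 4.43%, 4.59% and 5.47% in wild type. At 24 h they held 5.63% and 6.06% in the libraries labelled knockdown, against 4.92% and 4.37% in wild type. The share was not particular to synthetases. Over all genes it was 5.73%, 5.29% and 4.18% in knockdown at 48 h, against 4.05%, 4.26% and 4.22% in wild type. At 24 h it was 5.58% and 6.04% over all genes in the libraries labelled knockdown, against 5.17% and 4.93% in wild type. Without knockdown replicate 3, 26 synthetases fell and 1 rose at 48 h, with a median of -0.34, and 12 fell at 96 h and 28 at 24 h, since all groups share the estimate of the spread. Of the 19817 genes tested then, 4736 fell and 4133 rose at 48 h, 1509 fell at 96 h and 3146 at 24 h. Counted from protein-coding transcripts alone, 18 fell at 24 h, 19 fell and 2 rose at 48 h, and 10 fell at 96 h. Of 14661 genes counted so, 1924 fell at 24 h, 2623 fell and 2503 rose at 48 h, and 1063 fell at 96 h.

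The change differed between times, by an F test of the 3 differences, in CARS (edgeR adjusted p = 0.0414), KARS (edgeR adjusted p = 0.0178) and YARS (edgeR adjusted p = 0.0149), 3 of 36, where 9.44% of all genes did. Of the mean change at 48 h and 96 h minus that at 24 h, YARS alone passed (difference 0.42, SE 0.0947, edgeR adjusted p = 0.0354), where 0.812% of all genes did. That YARS call was lost under 6 of the 9 other settings, the replicate block among them, and with 12 of the 16 libraries left out in turn. The count of 3 by the F test was 10 with DESeq2 and 0 with a replicate block, where 2846 and 900 of 19836 genes passed. It became 19 without 48 h knockdown replicate 3 and 0 without replicate 2 of the 24 h libraries labelled knockdown or 48 h wild-type replicate 2. In those fits 5035 of 19817, 1218 of 20619 and 1058 of 19815 genes passed, so the count over all genes moved as well.

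In wild type, 6 synthetases were higher at 96 h than at 24 h and 8 were lower, where 16.2% of all genes rose and 19.1% fell. WARS2 had 8.58, 8.64 and 9.78 CPM in wild type at 96 h, against 3.73 and 4.21 CPM at 24 h (log2 fold change 1.18, SE 0.196, edgeR adjusted p = 6.62e-05). VARS2 (0.57), MARS2 (0.51), LARS (0.45), NARS (0.38) and QARS (0.36) rose too. GARS had 131, 134 and 135 CPM at 96 h, against 195 and 189 CPM at 24 h (log2 fold change -0.52, SE 0.0827, edgeR adjusted p = 3.78e-05). WARS, FARS2, HARS, SARS, CARS2, KARS and DARS fell with log2 fold changes between -0.52 and -0.26. The wild-type changes over time were therefore mixed in sign, and both counts lay near the shares of all genes.

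Enzymes for the same amino acid did not always move together. Among 17 pairs of a cytosolic and a mitochondrial gene, both fell in 6 at 24 h, in 8 at 48 h and in 1, the tyrosine pair, at 96 h. Phenylalanine was counted for each subunit gene, and EPRS both for glutamate and for proline, so the pairs are not independent. At 24 h the cytosolic gene alone fell in 10 pairs and the mitochondrial gene alone in 0. At 48 h these counts were 4 and 3. For methionine, MARS had -0.11 and MARS2 -0.92 at 48 h on the log2 scale, and for histidine HARS had -0.14 and HARS2 -0.43. Differences within pairs were not tested.

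The known ATF4 element of synthetase promoters was looked for because ATF4 is a known regulator of cytosolic synthetase genes. The 8-base C/EBP-ATF response element TGATGNAA was searched on both strands in RefSeq windows (GRCh38.p14) that run 250 bases before to 50 after a start, 300 bases in all. Of 39 windows of the 30 members with a window, 8 held it (20.5%), against 1270 of 35116 windows of all genes (3.62%). A window was not found for DARS, LARS, VARS, YARS, AARS2 and VARS2. The 8 matches are shown in 30 bases each because all 8 genes that hold the element fell at 24 h, though most fallen members with a window lacked it. They are read 5′ to 3′ on the strand of the motif, which is in capitals.
AARS chr16:70289675-70289704: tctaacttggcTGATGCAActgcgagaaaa
CARS chr11:3057407-3057436: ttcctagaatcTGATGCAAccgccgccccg
GARS chr7:30594834-30594863: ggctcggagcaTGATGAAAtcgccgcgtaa
IARS chr9:92293692-92293721: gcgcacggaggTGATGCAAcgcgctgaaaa
MARS chr12:57488053-57488082: gaatccctcgcTGATGCAAccggaaccggc
NARS chr18:57621804-57621833: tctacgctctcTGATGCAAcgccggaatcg
TARS chr5:33440956-33440985: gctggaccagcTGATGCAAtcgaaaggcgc
YARS2 chr12:32756076-32756105: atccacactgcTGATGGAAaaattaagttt

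All 8 genes with the element fell at 24 h, with log2 fold changes between -0.65 and -0.25 and a median of -0.48. Of the 22 genes with a window but no match, 12 fell at 24 h, with a median of -0.34. At 48 h 6 of the 8 and 15 of the 22 fell, with medians of -0.30 and -0.33, and at 96 h 2 of the 8 and 2 of the 22. Among all tested genes 12.4%, 18.5% and 5.15% fell at 24 h, 48 h and 96 h. Of the mitochondrial members YARS2 alone had the element in its window, so genes with and without it also differ in compartment. Of the 20 cytosolic members 18 fell at 24 h, and of the 16 mitochondrial members 5. Among cytosolic genes with a window but no match, EPRS, FARSA, FARSB, HARS, KARS, RARS, SARS and WARS fell at 24 h and QARS did not pass. A link between the element and the fall, apart from compartment, was not tested. A match is a description of these letters and not evidence of binding.

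KARS gives a cytosolic and a mitochondrial lysyl enzyme through alternative splicing, and its 2 main transcripts were followed apart; the files do not say which transcript gives which form. KARS-201 reached 72.2 ± 4.63 TPM in the libraries labelled knockdown and 97.9 ± 2.79 TPM in wild type at 24 h (SD, n = 2 each), and 71.0 ± 8.99 TPM in knockdown and 102.4 ± 3.69 TPM in wild type at 48 h (SD, n = 3 each). KARS-202 reached 18.8 ± 0.598 TPM in the libraries labelled knockdown and 24.5 ± 0.185 TPM in wild type at 24 h, and 12.8 ± 2.49 TPM in knockdown and 15.5 ± 3.43 TPM in wild type at 48 h. The share of KARS counts from KARS-202 was 23.7% ± 1.63 in the libraries labelled knockdown and 22.8% ± 0.643 in wild type at 24 h. It was 17.7% ± 1.18 in knockdown and 15.3% ± 3.30 in wild type at 48 h, within the spread of the libraries. Transcript usage was tested in 32 members with edgeR's diffSpliceDGE, which called 0 at 24 h, 1 at 48 h (NARS) and 1 at 96 h (CARS2), where 1.56%, 4.07% and 1.53% of 12784 genes were called. On simulated counts this test also called many unchanged genes, so these calls are only a description. A limma test of each transcript's log ratio to its gene's other transcripts called 0 members at each time, where it called 1.39%, 0.782% and 0.25% of genes, with 7, 8 and 3 at an unadjusted p under 0.05, against 8, 7 and 3 with diffSpliceDGE.

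The 3 scaffold genes of the complex followed the synthetases at 24 h, when all 3 fell, as did 12.4% of all tested genes. AIMP2 had 32.3 and 33.2 CPM in the libraries labelled knockdown, against 43.3 and 47.9 CPM in wild type at 24 h (log2 fold change -0.48, SE 0.103, edgeR adjusted p = 0.00249). It had 35.5, 40.1 and 42.2 CPM in knockdown, against 70.4, 71.7 and 63.7 CPM in wild type at 48 h (log2 fold change -0.81, SE 0.0829, edgeR adjusted p = 4.33e-07). EEF1E1 had 45.6, 53.3 and 50.3 CPM in knockdown, against 75.3, 76.4 and 79.8 CPM in wild type at 48 h (log2 fold change -0.63, SE 0.0764, edgeR adjusted p = 2.75e-06), and it fell at 96 h too (-0.26, edgeR adjusted p = 0.0332). Knockdown lay below wild type in each of these comparisons. AIMP1 fell at 24 h alone (log2 fold change -0.37, SE 0.124, edgeR adjusted p = 0.0438).

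ATF4 and its amino acid response targets fell with the synthetases at 24 h, 19 of 29 tested, while 1 rose, with a median log2 fold change of -0.43. At 48 h 12 fell and 1 rose (median -0.14), and at 96 h 9 fell and 0 rose (median -0.18). Of all tested genes 12.4%, 18.5% and 5.15% fell at 24 h, 48 h and 96 h, and 5.14%, 14.8% and 5.35% rose. ATF4 had 280.0 and 300.4 CPM in the libraries labelled knockdown, against 395 and 378 CPM in wild type at 24 h (log2 fold change -0.41, SE 0.0823, edgeR adjusted p = 0.00135). ATF4 did not pass at 48 h (-0.14, edgeR adjusted p = 0.103) or 96 h (-0.16, edgeR adjusted p = 0.149). ASNS, the asparagine synthetase of amino acid metabolism, had 32.3 and 31.6 CPM in the libraries labelled knockdown, against 54.5 and 52.0 CPM in wild type at 24 h (log2 fold change -0.74, SE 0.0914, edgeR adjusted p = 1.72e-05). CHAC1, a glutathione-degrading enzyme, fell at 24 h (-1.01). MTHFD2, of mitochondrial one-carbon metabolism, fell at 24 h (-0.70), 48 h (-0.58) and 96 h (-0.44). SLC7A5, a transporter of large neutral amino acids, had 266, 247 and 368 CPM in knockdown, against 532, 568 and 505 CPM in wild type at 48 h (log2 fold change -0.86, SE 0.105, edgeR adjusted p = 4.3e-06). EIF2AK4, the kinase that senses uncharged tRNA, passed at no time (-0.22, -0.54 and -0.14, edgeR adjusted p = 0.795, 0.224 and 0.872). The double-stranded RNA kinase gene EIF2AK2 rose at 24 h (log2 fold change 0.56, SE 0.107, edgeR adjusted p = 0.000886), and the phosphatase subunit PPP1R15A rose at 48 h (0.47) and 96 h (0.49). DDIT3, an ATF4 target that overlaps MARS on the other strand, fell at 24 h (log2 fold change -0.77, SE 0.182, edgeR adjusted p = 0.00672) and rose at 48 h (log2 fold change 0.67, SE 0.153, edgeR adjusted p = 0.00281).

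Other genes that handle tRNA fell as well. Of 22 tested genes of tRNA processing and export, 14 fell at 24 h (median -0.41), 19 at 48 h (median -0.47) and 4 at 96 h (median -0.11), and none rose. Of all tested genes 12.4%, 18.5% and 5.15% fell at these times. PUS1, a pseudouridine synthase, fell by 0.84 on the log2 scale at 48 h (edgeR adjusted p = 4.5e-07), and POP1, of ribonuclease P, fell at 24 h (-0.70) and 96 h (-0.47). At 48 h POP1 was lower too, with 74.4, 70.1 and 81.7 CPM in knockdown, against 102.5, 103.4 and 104.6 CPM in wild type. Of 13 mitochondrial translation factors and amidotransferase subunits, 7, 9 and 3 fell at 24 h, 48 h and 96 h, with medians of -0.37, -0.32 and -0.12. QRSL1, a subunit of the amidotransferase that turns the product of EARS2 into glutaminyl-tRNA, fell at all 3 times (-0.48, -0.48 and -0.25). Of 6 cytosolic elongation factors 3 fell at 24 h and 5 at 48 h, and at 96 h 1, EEF1A2, rose. EEF1B2, an exchange factor subunit, fell at 24 h (-0.58) and 48 h (-0.46).

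Most of the listed interferon genes rose at 24 h, when WARS fell. Of 10 tested genes of the interferon gamma response, 8 rose and 0 fell at 24 h (median 1.62), 4 rose and 2 fell at 48 h (median 0.07), and 5 rose and 0 fell at 96 h (median 0.42). Among all tested genes 5.14%, 14.8% and 5.35% rose at these times, and 12.4%, 18.5% and 5.15% fell. The 2 falls at 48 h are near that share. IFI6 rose at each time (2.60, 1.24 and 0.85, edgeR adjusted p = 8.1e-12, 1.94e-08 and 6.24e-06), and IFIT1 rose by 2.89 on the log2 scale at 24 h. IRF1 of the same list had 24.57 and 23.97 CPM in the libraries labelled knockdown, against 26.13 and 26.19 CPM in wild type at 24 h. At 48 h IRF1 had 19.41, 21.5 and 22.82 CPM in knockdown, against 27.74, 26.01 and 26.84 CPM in wild type. IRF1 thus lay below wild type at both times, and its groups overlapped at 96 h. CIITA overlapped wild type at 24 h. Which interferon lay behind the rises was not tested. WARS, itself an interferon gamma target, fell at 24 h and 48 h, and its 48 h call was lost under 7 of the 10 other settings.

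**Figure D5:**
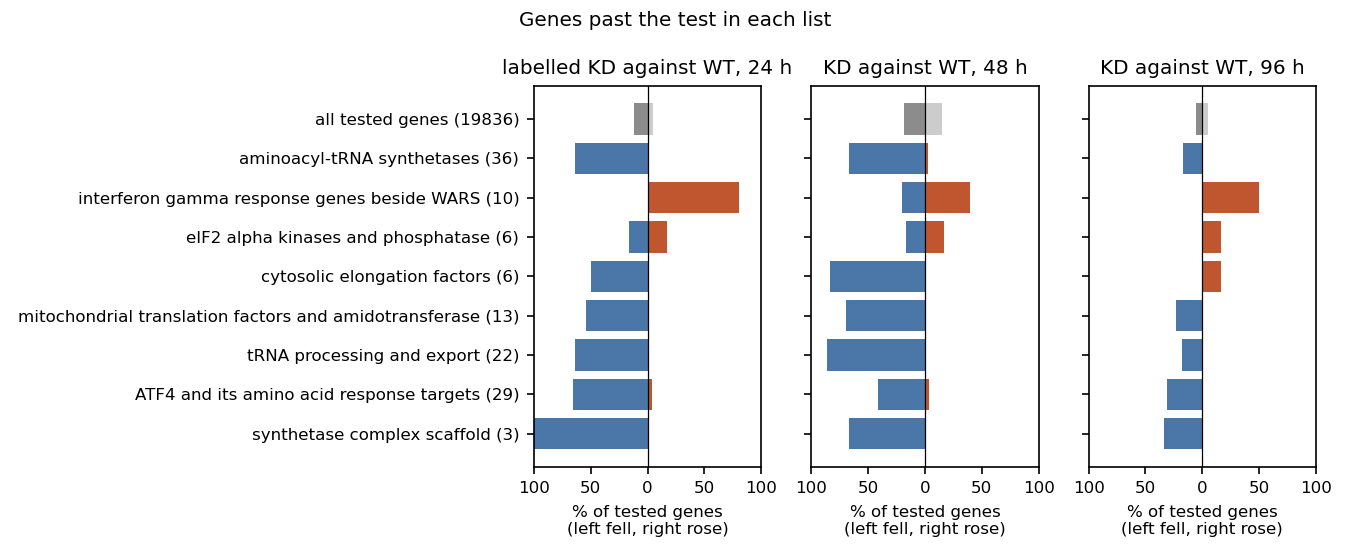
Percent of the tested genes of each list that fell (bars to the left) or rose (bars to the right) by edgeR adjusted p below 0.05 in knockdown against wild type at 24 h, 48 h and 96 h, with all tested genes in grey; the number of tested genes is in brackets. At 24 h 8 of the 10 interferon genes rose, while 23 of the 36 synthetases and 14 of the 22 tRNA processing and export genes fell.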

How the data were processed

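The authors deposited estimated counts (expected counts) per transcript, as whole numbers. Tools named in the submitters' processing notes are kallisto and DESeq2, with build hg19; versions, index and strand setting: not given in the sources used here. Since kallisto splits shared reads by a model, overlapping and near-identical genes are uncertain. Of 166096 transcripts 156584 matched GENCODE 29 (GRCh38) by identifier; the other 9512 held 2.75% to 3.40% of counts and were left out. Counts were summed to 31496 genes, rounded and tested with edgeR 4.0.16 in R 4.3.3 (filterByExpr, TMM, glmQLFit robust, glmQLFTest; 6 group means, 16 libraries, 10 residual degrees of freedom), adjusted by Benjamini-Hochberg over 19836 genes at 0.05. TPM used annotated transcript lengths. Usage tests were edgeR diffSpliceDGE and limma 3.58.1; DESeq2 1.42.0 was an alternative. Alternatives covered scaling, the filter, the libraries fitted, transcript types, a 1.2-fold minimum, a replicate block and each library left out. The gene and usage tests were also run on simulated counts. Depth leaves the spread between libraries, more than counting, to set the precision.

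The members, the gene lists (from general knowledge) and the rule for named genes were chosen with earlier results of these data known. The rule allowed all 36 members, NORAD, ZNF10, the scaffold and kinase genes, ATF4, and up to 4 genes of lowest p from each other list and comparison. GTF2H4 and MRPS12, outside that rule, were picked for their overlap, with values already seen.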

Additional observations from a re-analysis of the deposited data

Results flagged for a closer look

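In 3 synthetase genes the change against wild type differed between 24 h, 48 h and 96 h by edgeR's F test of the 3 differences, adjusted over all genes. These are 3 of 36, where 9.44% of all tested genes passed the same test, so the share is near that of all genes. With a replicate block 0 of the 36 passed, and with DESeq2 10, where 900 and 2846 of 19836 genes passed. For CARS the edgeR adjusted p was 0.0414, with log2 fold changes of -0.25, 0.15 and -0.04. For KARS it was 0.0178, with -0.68, -0.59 and -0.21. For YARS it was 0.0149, with -0.65, -0.17 and -0.29. The 24 h values are those of the libraries labelled knockdown, in which NORAD was not lower. The YARS call held under the 4 other edgeR scalings, and none of the 3 calls held with every library left out in turn.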

How the results depend on the processing

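Of 5508 recomputed values of single synthetases, 5017 kept their direction and side of the threshold, 373 no longer passed, 117 newly passed and 1 turned round (YARS at 48 h, 0.0109 with abundance-dependent offsets, which also gave EEF1D 0.00747 at 48 h, and EEF1B2 0.016 and TUFM 0.0129 in wild type at 96 h against 24 h); the cause was not tested. The fallen synthetases at 24 h, 48 h and 96 h numbered 9, 12 and 10 under total-count scaling, 15, 15 and 10 under upper-quartile factors, 12, 15 and 11 with abundance-dependent offsets, and 9, 10 and 0 where a change beyond 1.2-fold was asked for. Of 19836 genes, 810, 2134 and 1099 fell under total-count scaling and 1489, 2476 and 1118 under upper-quartile factors. With abundance-dependent offsets 1389, 2787 and 1225 genes fell, and beyond 1.2-fold 662, 1348 and 245. Without the filter 13 synthetases fell at 24 h, where 1601 of 28902 genes did. With libraries of that time alone 14 synthetases fell at 48 h and 14 at 96 h, where 2443 of 17434 and 1516 of 17509 genes did. From protein-coding transcripts 10 fell at 96 h, where 1063 of 14661 genes did. At 48 h 4 synthetases rose under total-count scaling, 3 under upper-quartile factors, 3 with abundance-dependent offsets, 2 from protein-coding transcripts and 0 beyond 1.2-fold. Over all genes these counts were 4731, 4453 and 2781 of 19836, 2503 of 14661, and 1286 of 19836. The change differed between times in 10 synthetases with DESeq2 and in 1 without the filter, where 2846 of 19836 and 1528 of 28902 genes passed. The later mean against 24 h gave 0 with DESeq2-type RLE factors, total-count scaling, no filter, protein-coding transcripts or a 1.2-fold minimum. In wild type 10 synthetases rose under upper-quartile factors, where 3649 of 19836 genes did. Beyond 1.2-fold 2 rose and 3 fell, where 1858 and 2277 of 19836 genes did. Usage calls were 0 at 48 h and 96 h by the limma log ratio, 2 at 48 h under total-count scaling, and 1, 0 and 0 among transcripts of at least 10% of their gene. RLE factors gave 17, 24 and 6 fallen and DESeq2 22, 24 and 8. Of 19836 genes, 2032, 3811 and 959 fell with RLE factors and 2379, 3935 and 1189 with DESeq2.

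Replicate numbers did not pair libraries: same-numbered deviations correlated between -0.263 and 0.062, and 2 of 12 libraries correlated best with their own number. With a replicate block 17, 19 and 5 fell, 0 differed between times, 0 in the later mean against 24 h, and 0 usage calls were made at 48 h and 96 h. With that block 1871, 3134 and 721 of 19836 genes fell.

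With each library left out in turn, 7 to 28 fell at 24 h, 15 to 26 at 48 h and 2 to 12 at 96 h. At 24 h leaving out replicates 1 and 2 labelled knockdown left 13 and 7, and wild-type replicates 1 and 2 left 14 and 11. In those fits 1363 of 20642, 924 of 20619, 1534 of 20703 and 1282 of 20735 genes fell. At 48 h leaving out knockdown replicate 1 left 15, and at 96 h leaving out knockdown replicate 3 left 2 and wild-type replicate 2 left 3. There 2721 of 19643, 587 of 19801 and 636 of 19815 genes fell. The difference between times gave 0 to 19, the later mean 0 to 1. The 19 came without 48 h knockdown replicate 3, where 5035 of 19817 genes passed. In wild type 4 to 8 rose and 5 to 11 fell, and usage calls were 0 to 2, 1 to 6 and 0 to 2. Single libraries at 24 h share the other groups' spread.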

Other observations

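Synthetases fall into 2 catalytic classes with unrelated folds, and both held members that fell. For scale, 12.4%, 18.5% and 5.15% of all tested genes fell at 24 h, 48 h and 96 h, and 14.8% rose at 48 h. Of 10 cytosolic class II genes (among them AARS, KARS, FARSB and TARS), 10 fell at 24 h, 8 at 48 h and 2 at 96 h, with median log2 fold changes of -0.47, -0.32 and -0.19. Of 9 cytosolic class I genes (among them IARS, YARS, CARS and QARS), 7 fell at 24 h, 5 at 48 h and 2 at 96 h, with medians of -0.37, -0.17 and -0.13. EPRS, which joins both classes in a single protein, fell at all 3 times. Of 7 mitochondrial class II genes 2, 4 and 0 fell at 24 h, 48 h and 96 h, with medians of -0.24, -0.41 and -0.09. Of 9 mitochondrial class I genes 3, 6 and 1 fell, with medians of -0.29, -0.30 and -0.16, and VARS2 rose at 48 h. The 96 h counts of both mitochondrial classes are near the share of all genes. Differences between the classes were not tested.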
